A study of Mus musculus with 4 samples.

Results

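The genes described here encode the enzymes and regulators of sterol and fatty acid synthesis that are targets or parts of the sterol regulatory element-binding protein (SREBP) pathway. They were chosen by name from a list of 32 genes: 5 regulators, 19 enzymes of sterol synthesis, the sterol transfer protein gene Stard4 and 7 enzymes of fatty acid synthesis. The count table holds 31 of them among its 12800 genes, and Fads2 was not analysed here. Transcripts of single microglia, the resident macrophages of the brain, were counted by droplet sequencing, in which the 3′ end of every captured transcript carries a molecular barcode (UMI) so that copies of 1 molecule count once. The 4 libraries came from male mice aged 12 to 14 months after 12 weeks on a diet: Trem2 -/- on 0.2% cuprizone, Trem2 +/- on 0.2% cuprizone, Trem2 +/+ on 0.2% cuprizone and Trem2 +/+ on control diet. They are called the knockout, the heterozygote, the wild-type cuprizone and the wild-type control library here. Cuprizone binds copper and leads to loss of oligodendrocytes and myelin, and Trem2 encodes a lipid-sensing receptor of microglia. Each library holds cells sorted as live, CD11b+ and CD45low from 2 pooled hemibrains, and the labels do not give the Trem2 allele. With 1 library per group, animal, library and group cannot be told apart and no test between groups was possible.

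SREBPs are membrane-bound transcription factors of the endoplasmic reticulum. When sterols are low, Scap escorts them to the Golgi, where proteases free the part that enters the nucleus, and when sterols are high, Insig proteins hold the complex back. SREBP-2, the product of Srebf2, acts mainly on genes of cholesterol synthesis and uptake, and SREBP-1, the product of Srebf1, mainly on genes of fatty acid synthesis. In the brain cholesterol is made locally, largely for myelin, and microglia that take up myelin debris receive sterol from outside.

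In these libraries most sterol synthesis genes lay slightly lower in knockout than in wild-type microglia on cuprizone, while the fatty acid synthesis genes with enough counts lay near the wild-type level. In the heterozygote 11 of 15 sterol synthesis genes with enough counts also lay below wild type on cuprizone. The summed sterol synthesis genes stood at 0.931 times wild type there (0.873 to 0.994). For knockout over heterozygote that sum had a ratio of 0.940 (0.880 to 1.004), an interval that does not separate those libraries. For the genes from squalene to sterol alone the ratio was 0.911 (0.838 to 0.990). In the knockout against wild type on cuprizone, Srebf2 and Idi1, an isomerase of the mevalonate pathway, were lower by more than the others with enough counts. Idi1 rests on 15 and 35 UMIs there. It passed the 1.5-fold rule set out below in 4 of 9 other ways of summing or scaling the counts, and Srebf2 in 9. Wild-type microglia on cuprizone differed little from those on control diet in the summed levels. Srebf2 and the desaturase gene Scd2 were higher in the pooled cells. With clusters weighted equally neither was past 1.5-fold.

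Values are UMIs summed over the cells of 6 of the authors' 8 clusters and divided by the library total, times 1000000 (CPM). Those clusters (01, 02, 04, 05, 06 and 08) held 753 knockout, 695 heterozygote, 663 wild-type cuprizone and 479 wild-type control cells, with 6514310, 6552603, 6175520 and 3638474 UMIs in that order of libraries. Trem2 stood at 520.1 CPM in the knockout and 1763 CPM in the heterozygote, against 2939 CPM in wild type on cuprizone and 3132 CPM on control diet, in the order of the labelled genotypes. A 3′ tag outside a deleted part would not check the knockout. All 10 microglia markers were found in every library, summing to 20449 to 25044 CPM. Neutrophil markers summed to 651 CPM in the knockout, 1784 in the heterozygote and 49.2 in wild type on cuprizone, and 8 of their 10 genes had 0 UMIs in the control library. In the knockout and the heterozygote 86.5% and 90.2% of those UMIs sat in the richest 1% of cells. Of the other 12 lists, border-associated macrophage markers (8 of 8 in the table) summed to 155 CPM in the knockout, 254 in the heterozygote, 240.5 in wild type on cuprizone and 180.3 on control diet. Choroid plexus or ependymal markers (4 of 5 in the table, 1 of them at 0 in the knockout) summed to 108, 134, 209 and 183 CPM in that order, and endothelial markers (5 of 5) to 17.5, 31.7, 34.7 and 21.99 CPM. Dendritic cell markers (2 of 4) summed to 11.4, 15.0, 12.8 and 18.1 CPM. Oligodendrocyte precursor markers (1 of 4) summed to 0, 4.12, 3.24 and 0.55 CPM. Like Srebf2, the border-associated macrophage, choroid plexus or ependymal, endothelial, dendritic cell and oligodendrocyte precursor lists were lowest in the knockout. Their part in the results was not tested. None of the 12 lists exceeded 254 CPM in a library. Between libraries 8 cell barcodes recurred, which covers 16 of 3023 cells.

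Promoters are shown for the 5 genes that passed 1.5-fold between knockout and wild type on cuprizone, since SREBPs act through promoter elements. The sequences come from RefSeq on build GRCm38.p6, which held a promoter for 25 of the 31 genes, and run 5′ to 3′ on the strand of the gene. Each is the longest stretch of the promoter that lies in no protein-coding exon. Capitals mark the letters searched on both strands: TCACNNCA, a loose form of the sterol regulatory element, GGGCGG, the GC box, and CCAAT, the CCAAT box. The Srebf2 stretch is chr15:82147019-82147180 on the plus strand, the Idi1 stretch chr13:8885356-8885500 on the plus strand and the Mvk stretch chr5:114444061-114444268 on the plus strand. The Cyp51 stretch is chr5:4104747-4104947 on the minus strand and the Ggps1 stretch chr13:14063490-14063603 on the minus strand.
Srebf2: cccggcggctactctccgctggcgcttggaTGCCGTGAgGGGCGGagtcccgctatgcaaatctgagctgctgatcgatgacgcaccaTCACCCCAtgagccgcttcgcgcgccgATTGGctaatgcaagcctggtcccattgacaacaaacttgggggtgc
Idi1: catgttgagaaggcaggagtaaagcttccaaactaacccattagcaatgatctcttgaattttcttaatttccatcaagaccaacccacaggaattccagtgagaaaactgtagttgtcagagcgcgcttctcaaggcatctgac
Mvk: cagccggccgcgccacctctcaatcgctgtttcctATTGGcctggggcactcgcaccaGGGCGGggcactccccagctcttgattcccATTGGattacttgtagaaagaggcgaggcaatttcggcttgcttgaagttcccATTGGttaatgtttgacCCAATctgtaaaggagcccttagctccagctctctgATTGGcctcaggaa
Cyp51: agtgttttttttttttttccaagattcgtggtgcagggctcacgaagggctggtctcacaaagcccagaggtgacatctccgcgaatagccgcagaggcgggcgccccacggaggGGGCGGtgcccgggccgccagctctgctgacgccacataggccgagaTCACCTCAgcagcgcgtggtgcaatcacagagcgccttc
Ggps1: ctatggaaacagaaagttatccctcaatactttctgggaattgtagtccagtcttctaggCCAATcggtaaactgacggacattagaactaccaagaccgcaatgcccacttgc

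Searched over the 250 bases before each start, the strict sterol regulatory element TCACNCCAC was found in 1 of the 25 genes, Hmgcs1, and in 1.225% of all 27025 genes with a promoter in the table. The looser TCACNNCA, letters chosen after these sequences had been seen, was found in 10 of the 25 genes, among them Srebf2 and Cyp51, and in 12.98% of all genes. CACGTG, the E-box, was found in 6 of the 25 genes and in 6.86% of all genes. CCAAT was found in 21 of the 25 genes against 37.5% of all genes, and GGGCGG in 20 against 35.4%. A gene counts once if any of its promoters holds the letters. The looser form holds the first letters of the strict one, so those matches overlap. In Idi1 the CCAAT and GC box matches lie downstream of the stretch shown. The CCAAT match of Cyp51 and further GC boxes of Srebf2 also lie downstream of theirs. A further GC box of Mvk and further CCAAT matches of Ggps1 lie upstream. A match is a description of letters and shows no site of binding.

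The regulators come first. Srebf2 (ENSMUSG00000022463, chromosome 15, 82147181 to 82205379, plus strand) had 45 UMIs (6.91 CPM) in the knockout, 92 (14.0) in the heterozygote, 90 (14.6) in wild type on cuprizone and 30 (8.25) on control diet. The heterozygote and wild-type cuprizone libraries were the high pair, and their 95% Poisson intervals did not meet that of the knockout. The border-associated macrophage, choroid plexus or ependymal, endothelial, dendritic cell and oligodendrocyte precursor marker sums were also lowest in the knockout, at the CPM given above. Their part in the Srebf2 values was not tested. Srebf1 stood at 17.8, 15.6, 14.4 and 15.4 CPM in the same order of libraries, with intervals that all overlapped.

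Scap, the escort, had 14.7 CPM in the knockout, 17.7 in the heterozygote, 19.9 in wild type on cuprizone and 18.7 on control diet. Insig1, which retains the complex and is itself an SREBP target, had 10.7, 17.7, 15.4 and 18.4 CPM in that order. For both, the knockout held the lowest level of the 4 libraries. Insig2, the second retention protein, had 48.5, 44.9, 46.3 and 54.1 CPM and was highest on control diet.

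Among the enzymes from acetyl-CoA to isoprenoids, Acat2, a thiolase that opens the pathway, had 8.44 CPM in the knockout, 8.24 in the heterozygote, 9.72 in wild type on cuprizone and 10.4 on control diet. Hmgcs1, the HMG-CoA synthase, had 12.9, 14.3, 18.5 and 18.7 CPM in that order. Mvk, mevalonate kinase, had 28 UMIs (4.30 CPM), 38 (5.80), 45 (7.29) and 30 (8.25). These genes were lower in the knockout and the heterozygote than in either wild-type library. The next kinase gene, Pmvk, went the other way, with 26.1, 24.7, 21.1 and 21.2 CPM.

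Mvd, the decarboxylase that yields isopentenyl diphosphate, had 49 UMIs (7.52 CPM) in the knockout, 27 (4.12) in the heterozygote, 45 (7.29) in wild type on cuprizone and 25 (6.87) on control diet, so the heterozygote stood apart. Idi1 (ENSMUSG00000058258, chromosome 13, 8885501 to 8892451, plus strand) had 15 UMIs (2.30 CPM) in the knockout, 39 (5.95) in the heterozygote, 35 (5.67) in wild type on cuprizone and 26 (7.15) on control diet. Its knockout level lay below the other 3 and its interval (1.29 to 3.80) did not meet theirs.

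Fdps, which makes farnesyl diphosphate, had 21.3 CPM in the knockout, 22.1 in the heterozygote, 27.4 in wild type on cuprizone and 26.7 on control diet. Ggps1 (ENSMUSG00000021302, chromosome 13, 14050659 to 14063488, minus strand) makes geranylgeranyl diphosphate for protein prenylation and so sits on a branch away from sterols. It had 101 UMIs (15.5 CPM) in the knockout, 90 (13.7) in the heterozygote, 62 (10.0) in wild type on cuprizone and 56 (15.4) on control diet. Here the wild-type cuprizone library was the low one. Ggps1 overlaps Arid4b on the opposite strand, and whether the counting used strand is not given in the sources used here.

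From squalene to sterols, Msmo1, a methylsterol oxidase, had 26.2 CPM in the knockout, 31.7 in the heterozygote, 36.1 in wild type on cuprizone and 38.2 on control diet. Nsdhl, a dehydrogenase of the same demethylation, had 8.29, 10.5, 10.2 and 11.5 CPM in that order. Ebp, a sterol isomerase with the most UMIs of the set (2007 over the 4 libraries), had 84.4, 86.2, 91.8 and 89.3 CPM. All 3 were lowest in the knockout, by a small margin for Ebp.

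Sc5d, a sterol desaturase, had 12.3 CPM in the knockout, 12.1 in the heterozygote, 13.9 in wild type on cuprizone and 10.2 on control diet. Dhcr7, a reductase that completes cholesterol, had 14.3, 18.2, 18.5 and 13.7 CPM. Cyp51, the lanosterol demethylase, had 44 UMIs (6.75 CPM) in the knockout, 53 (8.09) in the heterozygote, 65 (10.5) in wild type on cuprizone and 30 (8.25) on control diet. Cyp51 overlaps Akap9 on the opposite strand.

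The remaining sterol genes had few UMIs. Fdft1, squalene synthase, lay between 6.91 and 10.7 CPM, lowest in the knockout and highest on control diet, and overlaps Ctsb, a gene of 89999 UMIs on the opposite strand. Sqle, Lss, Tm7sf2 and Hsd17b7 held 28 to 56 UMIs each over all 4 libraries. Stard4 held 42, with 6 in the knockout, 11 in the heterozygote, 19 in wild type on cuprizone and 6 on control diet.

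Of the fatty acid genes, Acly, which makes cytosolic acetyl-CoA from citrate for both pathways, had 60.8 CPM in the knockout, 59.2 in the heterozygote, 53.9 in wild type on cuprizone and 54.1 on control diet. Scd2, a desaturase of saturated fatty acids, had 23.8, 23.0, 24.8 and 14.8 CPM, so the control library was low. Elovl5, an elongase of polyunsaturated fatty acids, had 9.36, 14.0, 10.4 and 15.4 CPM, with the knockout and wild-type cuprizone libraries as the low pair.

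Fads1, a desaturase of polyunsaturated fatty acids, had 19.96 CPM in the knockout, 20.1 in the heterozygote, 21.4 in wild type on cuprizone and 25.6 on control diet. Fasn, the fatty acid synthase, had 26 UMIs (3.99 CPM), 40 (6.10), 16 (2.59) and 10 (2.75) in that order, with its highest level in the heterozygote. Elovl6, an elongase, had 1 UMI in each cuprizone library and 0 on control diet, where the interval runs up to 1.01 CPM.

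**Figure D1:**
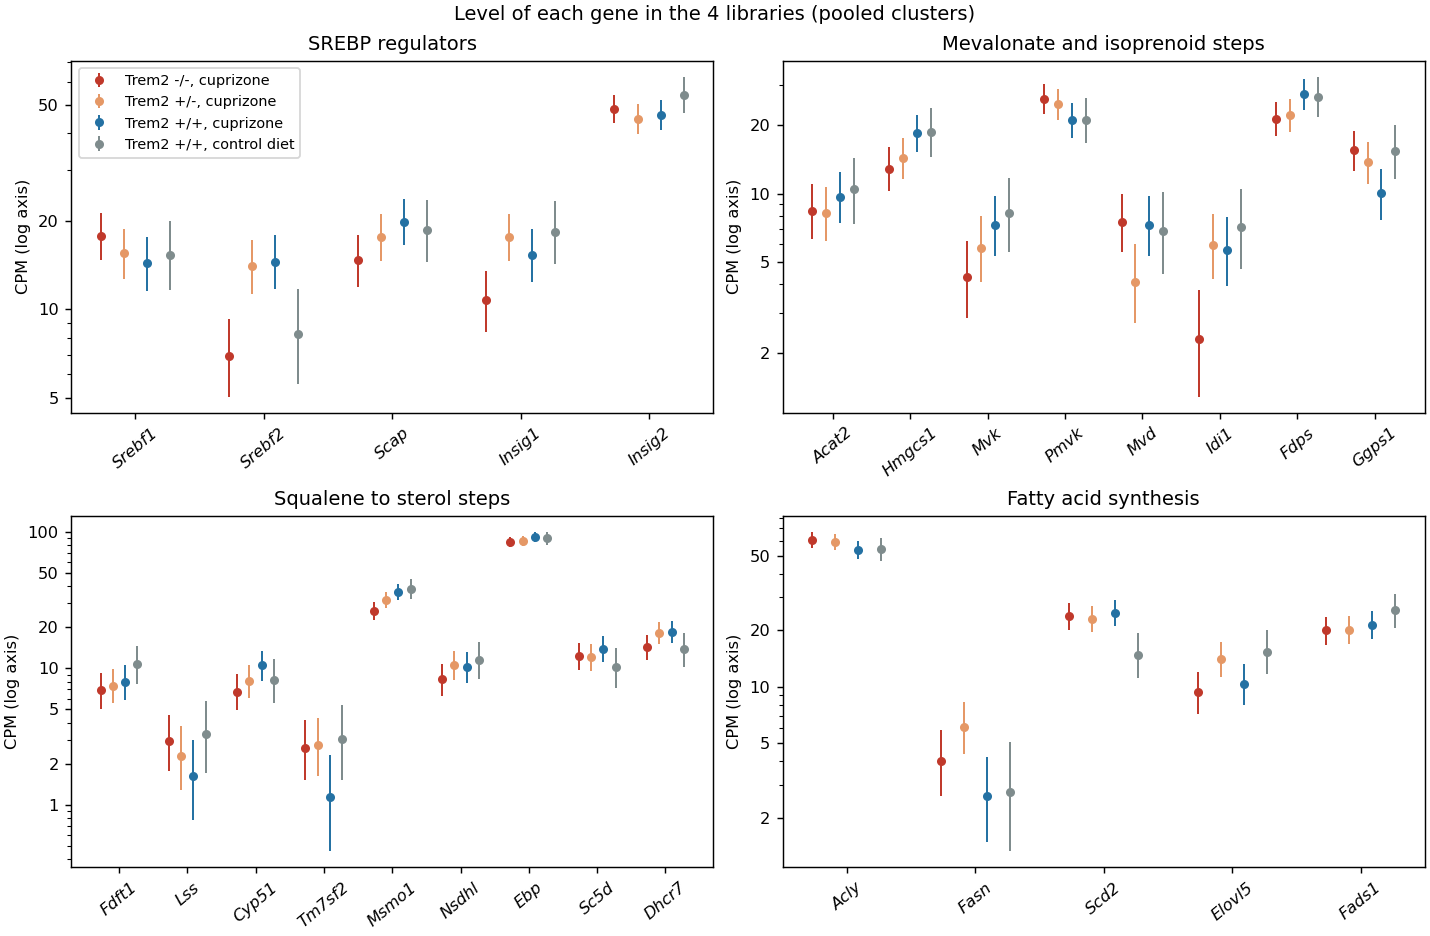
Level of each gene in CPM (log axis) in the 4 libraries, with exact Poisson 95% intervals (counting error only). Srebf2 is lowest in the knockout (6.91 CPM) and Idi1 is at 2.30 CPM there, against 5.67 CPM in wild type on cuprizone; genes with under 50 UMIs over the 4 libraries are not drawn.

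The first comparison asked how loss of Trem2 was reflected in these genes during chronic demyelination, knockout against wild type on cuprizone. A gene is counted as past 1.5-fold where its CPM ratio reaches 1.5 in either direction, its exact conditional binomial 95% interval excludes 1 and both libraries together hold 50 UMIs. Of the 31 genes 24 had 50 UMIs, and 4 of them were lower in the knockout, where the same rule calls 3.86% of all 9189 genes lower. Ggps1 was the 1 gene that was higher, against 1.64% of all genes. Up to the abundance of the richest member the background was 4.19% lower and 1.86% higher of 7693 genes.

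The 4 lower genes were Idi1, at 2.30 CPM in the knockout against 5.67 in wild type, 2.46-fold lower (1.31 to 4.85), Srebf2, 2.11-fold lower (1.46 to 3.09), Mvk, 1.70-fold lower (1.03 to 2.82) and Cyp51, 1.56-fold lower (1.05 to 2.34). Ggps1 was 1.54-fold higher (1.11 to 2.15), with the low value on the wild-type side. Srebf2 and Idi1 also passed 2-fold, which 1.23% of all genes did in the lower direction. With no minimum of fold, the interval excluded 1 for 9 of the 24 genes in the lower direction, against 10.6% of all genes, and for 1 in the higher, against 9.51%. The 5 that did not reach 1.5-fold were Insig1 at 1.43-fold lower (1.04 to 1.98), Hmgcs1 at 1.43-fold (1.07 to 1.92), Msmo1 at 1.38-fold (1.12 to 1.69), Scap at 1.35-fold (1.03 to 1.78) and Fdps at 1.28-fold (1.02 to 1.62). Below the minimum of 50 UMIs, Sqle, the squalene epoxidase, had 3 UMIs in the knockout against 14 in wild type, and its ratio of 0.203 had an interval of 0.0374 to 0.728. Stard4 likewise had a ratio of 0.299 (0.0979 to 0.780).

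Among the 15 sterol synthesis genes with 50 UMIs, 12 lay below a ratio of 1, against 50.3% of all genes, and their median log2 ratio was -0.30, against -0.00 over all genes. All 7 genes from squalene to sterol lay below 1, from -0.64 for Cyp51 to -0.12 for Ebp on the log2 scale. The 8 mevalonate and isoprenoid genes were split, with 5 below and 3 above. The fatty acid genes with 50 UMIs had a median of -0.08, and none of the 4 passed 1.5-fold in either direction. Acly stood at 1.13 times the wild-type level (0.972 to 1.31) and Scd2 at 0.960 times (0.763 to 1.21).

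The summed levels differed by less than those of single genes. The 19 sterol synthesis genes summed to 264.8 CPM in the knockout against 302 CPM in wild type on cuprizone, 1.14-fold lower (1.07 to 1.22). The squalene to sterol genes summed to 166 CPM against 196 CPM, 1.18-fold lower (1.08 to 1.28). Without Ebp, which carries the most UMIs, the sterol sum was 1.17-fold lower (1.08 to 1.26). The fatty acid genes summed to 118 CPM in the knockout against 113 CPM, a ratio of 1.04 (0.940 to 1.16), and the regulators to 98.7 CPM against 111 CPM, a ratio of 0.892 (0.800 to 0.995).

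**Figure D2:**
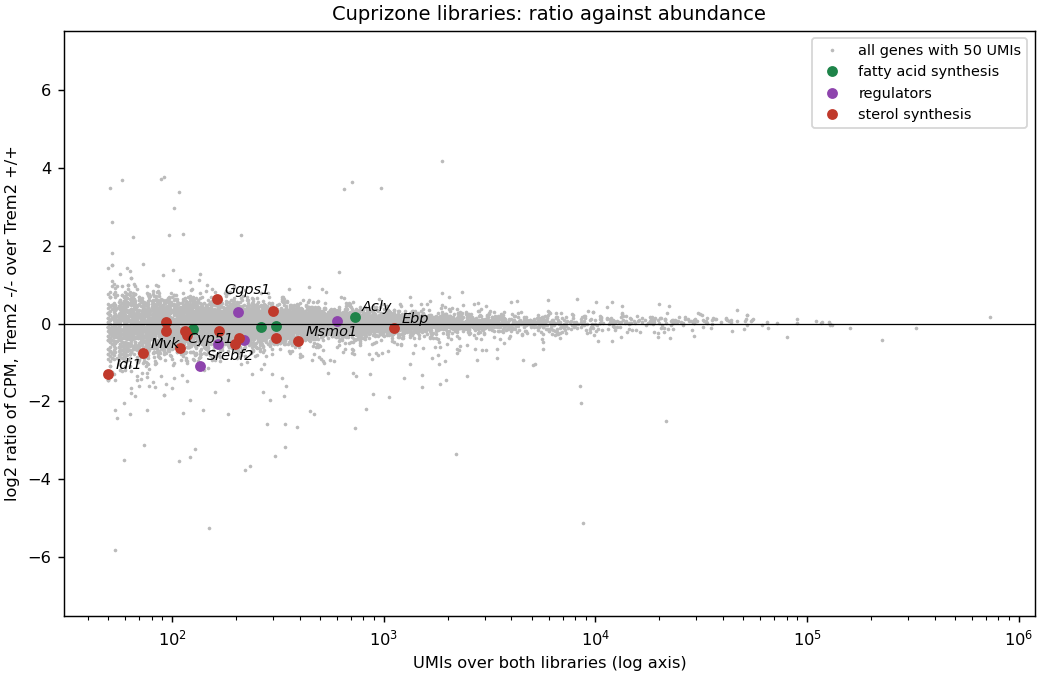
Log2 ratio of CPM, Trem2 -/- over Trem2 +/+ on cuprizone, against the UMIs of both libraries (log axis) for all genes with 50 UMIs (grey) and the genes of the set (coloured by role). Srebf2 and Idi1 lie lowest in the set, at -1.08 and -1.30, and Ebp, with 1117 UMIs, lies at -0.12, inside the band of all genes.

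Neutrophil marker UMIs differed between these libraries, as given above. The richest 1% of cells held 86.5% of them in the knockout but 7.57% in wild type on cuprizone. Without those cells Srebf2, Mvk and Ggps1 were past 1.5-fold and Cyp51 and Idi1 were not. Cyp51 then had a log2 ratio of -0.56 with an interval of -1.15 to 0.02. Idi1 had one of -1.35 (-2.36 to -0.41) and missed the minimum of 50 UMIs. Over 9 other ways of summing or scaling the counts, that one included, Srebf2 was past 1.5-fold in each, with log2 ratios of -1.57 to -0.93. The -1.57 came with clusters weighted equally, where the 13 knockout cells of cluster 04 held 0 Srebf2 UMIs. With those weights and with the mean of per-cell CPM, the interval was that of the summed counts moved to the new ratio. It leaves out the noise that the weighting adds. Idi1, whose 50 UMIs stand at the minimum, passed in 4 of the 9, and its log2 ratio lay between -1.48 and -0.85. Ggps1 passed in 7, Mvk in 8 and Cyp51 in 5, with Cyp51 log2 ratios of -0.68 to -0.44.

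The heterozygote, compared with the same wild-type cuprizone library, had 2 genes past 1.5-fold. Of 25 genes with 50 UMIs, 1 was higher, where the background is 1.32% of 9248 genes, and 1 was lower, against 1.17%. Fasn had 40 UMIs in the heterozygote against 16 in wild type and was 2.36-fold higher (1.29 to 4.51). It was the 1 gene of the set past 2-fold here, against 0.454% of all genes in the higher direction. Mvd was 1.77-fold lower (1.07 to 2.96). Srebf2, at a ratio of 0.963 (0.713 to 1.30), and Idi1, at 1.05 (0.648 to 1.71), were not past 1.5-fold, and both intervals reach past 1.

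The heterozygote's sterol genes had a median log2 ratio of -0.19, against -0.01 over all genes, with 11 of 15 below a ratio of 1, against 51.8% of all genes. They summed to 281.7 CPM in the heterozygote against 302 CPM in wild type, a ratio of 0.931 (0.873 to 0.994). Without the cell of each library that held most sterol gene UMIs, that log2 ratio was -0.07 with an interval of -0.16 to 0.03. The fatty acid genes summed to 123 CPM against 113 CPM, a ratio of 1.08 (0.978 to 1.201).

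Both comparisons share the wild-type cuprizone library, so a value that stands apart there moves both. Knockout and heterozygote were therefore also set against each other. Of 25 genes, 3 were lower in the knockout, against a background of 3.64% of 9259 genes, and 1 was higher, against 1.3%. Srebf2 was 2.03-fold lower (1.41 to 2.97), Idi1 2.58-fold lower (1.39 to 5.05) and Insig1 1.65-fold lower (1.21 to 2.25) in the knockout than in the heterozygote. Mvd was 1.83-fold higher (1.12 to 3.04), with the low value in the heterozygote. The sterol genes summed to 264.8 CPM in the knockout against 281.7 CPM in the heterozygote, a ratio of 0.940 whose interval of 0.880 to 1.004 holds 1. The interval excluded 1 for the squalene to sterol genes, at a ratio of 0.911 (0.838 to 0.990), and for the sterol genes without Ebp, at 0.923 (0.852 to 0.9994). Over the same 9 alternatives, added for this comparison after its values were seen, Srebf2 was past 1.5-fold in 9, Insig1 in 8, Mvd in 7 and Idi1 in 5.

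Across the 3 cuprizone libraries the knockout held the lowest CPM for 15 of 25 genes, where 36.7% of all 9873 genes with 50 UMIs have their lowest value in the knockout. It held the lowest for 10 of 15 sterol synthesis genes and for 6 of 7 from squalene to sterol, Sc5d being the exception. For 6 of 25 genes it held the highest, against 37% of all genes. These were Srebf1, Insig2, Pmvk, Mvd, Ggps1 and Acly.

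**Figure D3:**
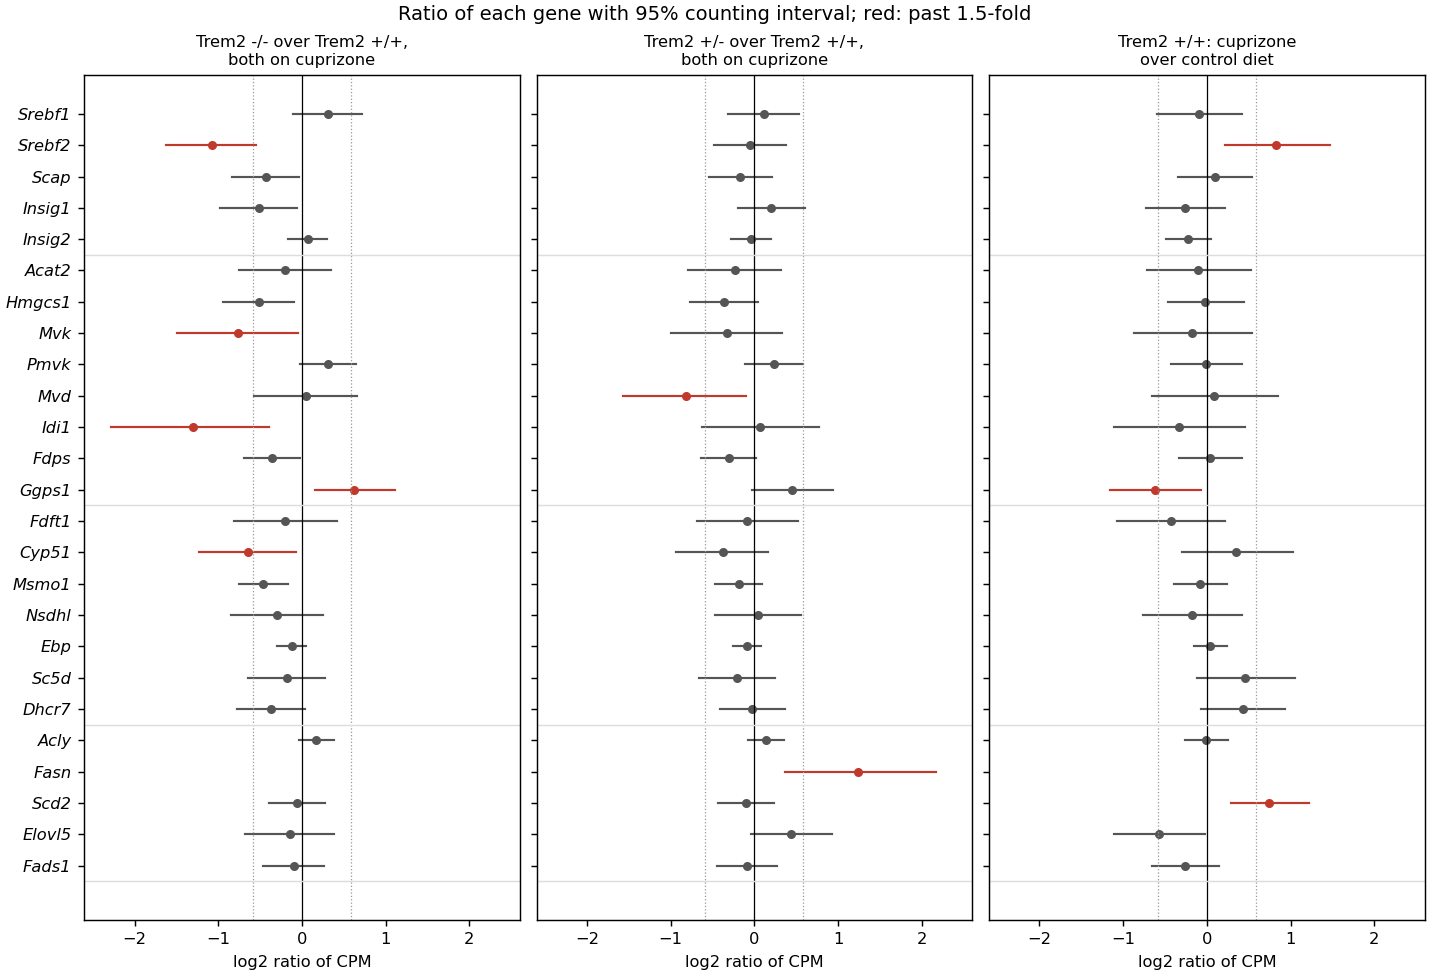
Log2 ratio of CPM with its exact conditional binomial 95% interval (counting error only) for each gene with 50 UMIs in a comparison: Trem2 -/- and Trem2 +/- over Trem2 +/+ on cuprizone, and Trem2 +/+ on cuprizone over control diet. Red marks the genes past 1.5-fold, which number 5, 2 and 3 from left to right, and dotted lines stand at 1.5-fold.

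The diet itself was compared in wild type, cuprizone against control. Of 24 genes with 50 UMIs, 2 were higher on cuprizone, against 2.59% of 8819 genes, and 1 was lower, against 4.44%. Srebf2 was 1.77-fold higher (1.16 to 2.77). Scd2 had 153 UMIs (24.8 CPM) on cuprizone against 54 (14.8 CPM) on control diet, 1.67-fold higher (1.22 to 2.32). Ggps1 was 1.53-fold lower (1.05 to 2.24), and Elovl5 at 1.49-fold lower (1.02 to 2.16) lay just short of 1.5-fold. At 2-fold 0 genes of the set passed, against 1.98% of all genes in either direction.

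These values share the wild-type cuprizone library with the comparisons above. For Srebf2 the knockout on cuprizone and the wild type on control diet were the low libraries, and for Ggps1 the wild-type cuprizone library was low against the other 3. With each cluster given equal weight none of the 3 genes was past 1.5-fold, and the log2 ratios of Srebf2 and Scd2 were 0.38 and 0.15. The control library held 6 cells in cluster 04 and 13 in cluster 08, so the weighting rests on few cells there. Ggps1 was past 1.5-fold in 5 of the 9 alternatives. Its log2 ratio was -0.50 under TMM scaling, -0.57 with totals that leave out ribosomal protein and mitochondrial genes, -0.50 over all deposited cells and -0.27 with clusters weighted equally, none of them past 1.5-fold by the rule.

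The sterol genes summed to 302 CPM on cuprizone against 305 CPM on control diet, a ratio of 0.992 (0.920 to 1.07), and the fatty acid genes to 113 CPM in both, a ratio of 1.0045 (0.888 to 1.14). The median log2 ratio was -0.02 for the sterol genes, against -0.11 over all genes, and -0.13 for the fatty acid genes. TMM scaling shifted the median of all genes by 0.12, and the sterol sum then stood at a log2 ratio of 0.11.

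Other genes of these pathways were taken as well, 52 by list and 48 in the table. Of the 37 with 50 UMIs in knockout against wild type on cuprizone, 1 was lower, against 3.86% of all genes, and 0 higher, against 1.64%. That gene was Hacd2, a dehydratase of the elongation of very long fatty acids, with 352 UMIs (54.0 CPM) in the knockout against 586 (94.9 CPM) in wild type, 1.76-fold lower (1.54 to 2.01). In the heterozygote against wild type 0 of 38 passed, against 1.32% of all genes higher and 1.17% lower, and Hacd2 stood at 0.907 times the wild-type level (0.807 to 1.02). In wild type, Hacd2 was 1.56-fold higher on cuprizone than on control diet (1.34 to 1.83) and was the 1 gene of 35 that passed. All genes passed at 2.59% higher and 4.44% lower there.

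Levels were also taken within each of the authors' clusters, as a description, since 12 of the 31 genes were among the 4895 the authors kept for clustering. Over all libraries the sterol genes summed to 262 CPM in cluster 02, 269 in cluster 08, 300.05 in cluster 04, 308 in cluster 05, 314 in cluster 01 and 354 in cluster 06. Among the clusters outside the pool, cluster 07 stood at 309 CPM and cluster 03, which stays unnamed, at 634 CPM over 66 cells. In cluster 03 Fdps was at 113 CPM, Hmgcs1 at 88.2 CPM and Scd2 at 119 CPM. Cluster 02 was the deepest of the 8, at a median of 16984 UMIs per cell, and had the lowest sterol sum in CPM.

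Within clusters the sterol sum of the knockout stood below that of wild type on cuprizone in 7 of 8 clusters, and 1 interval excluded 1. That was cluster 06, with 334 CPM in the knockout against 421 CPM in wild type, a ratio of 0.794 (0.641 to 0.982). The heterozygote stood at 333 CPM there and wild type on control diet at 327 CPM, so the wild-type cuprizone library was the high one. In cluster 02, which held the most UMIs, the values were 251 CPM in the knockout against 265 CPM, a ratio of 0.947 (0.857 to 1.05). In cluster 05 the ratio was 1.04 (0.862 to 1.27). Cluster 04, with 13 knockout and 122 wild-type cuprizone cells, gave a ratio of 0.742 (0.516 to 1.04).

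The heterozygote, with 150 cells in cluster 04, had 265 CPM there against 349.7 CPM in wild type on cuprizone, a ratio of 0.758 (0.666 to 0.861). Its ratio was 0.790 (0.631 to 0.986) in cluster 06 and 0.671 (0.501 to 0.892) in cluster 03, with 20 and 21 cells in the last. In the other 5 clusters the heterozygote's interval held 1. In wild type the diet ratio was 1.29 (1.04 to 1.59) in cluster 06, where cuprizone stood at 421 CPM against 327 CPM on control diet. It was 0.574 (0.397 to 0.847) in cluster 08, with 13 control cells.

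Srebf2 had 34 UMIs (9.71 CPM) in knockout cells of cluster 02, 47 (17.9) in the heterozygote, 49 (17.95) in wild type on cuprizone and 15 (10.3) on control diet. In cluster 04 it had 0 UMIs in the 13 knockout cells, too few to read, 23 in the heterozygote and 23 in wild type on cuprizone. Elsewhere its UMIs were few. In cluster 07, outside the pool, it stood at 11.5 CPM in the knockout against 20.2 in wild type on cuprizone, from 14 and 13 UMIs. For the same libraries cluster 08 gave 3.94 against 15.4 CPM, from 5 and 7 UMIs. Cluster 01 gave 2.37 against 14.7 CPM, from 1 and 5, and cluster 03 gave 8.66 against 10.8, from 1 and 2. In cluster 06 it stood at 6.31 CPM in the knockout, from 3 UMIs, against 6.25 CPM in wild type on cuprizone, from 3. In cluster 05 it stood at 2.84 CPM in the knockout, 3.93 in wild type on cuprizone and 7.97 on control diet, from 2, 3 and 9 UMIs. Ggps1 had 61 UMIs (17.4 CPM) in knockout cells of cluster 02, 33 (12.6) in the heterozygote, 21 (7.69) in wild type on cuprizone and 18 (12.4) on control diet. Idi1 had at most 20 UMIs in any cluster of a library, so its levels by cluster were not read.

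For the fatty acid genes, cluster 03 gave 424 CPM in the knockout against 205 CPM in wild type on cuprizone, a ratio of 2.08 (1.33 to 3.26), from 18 and 21 cells. Of those UMIs, 29 in the knockout and 10 in wild type were Scd2. In the 7 other clusters the interval of the knockout ratio held 1. In cluster 01 the fatty acid sum was 126 CPM on cuprizone against 66.0 CPM on control diet in wild type, a ratio of 1.91 (1.15 to 3.24), from 43 and 26 UMIs.

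**Figure D4:**
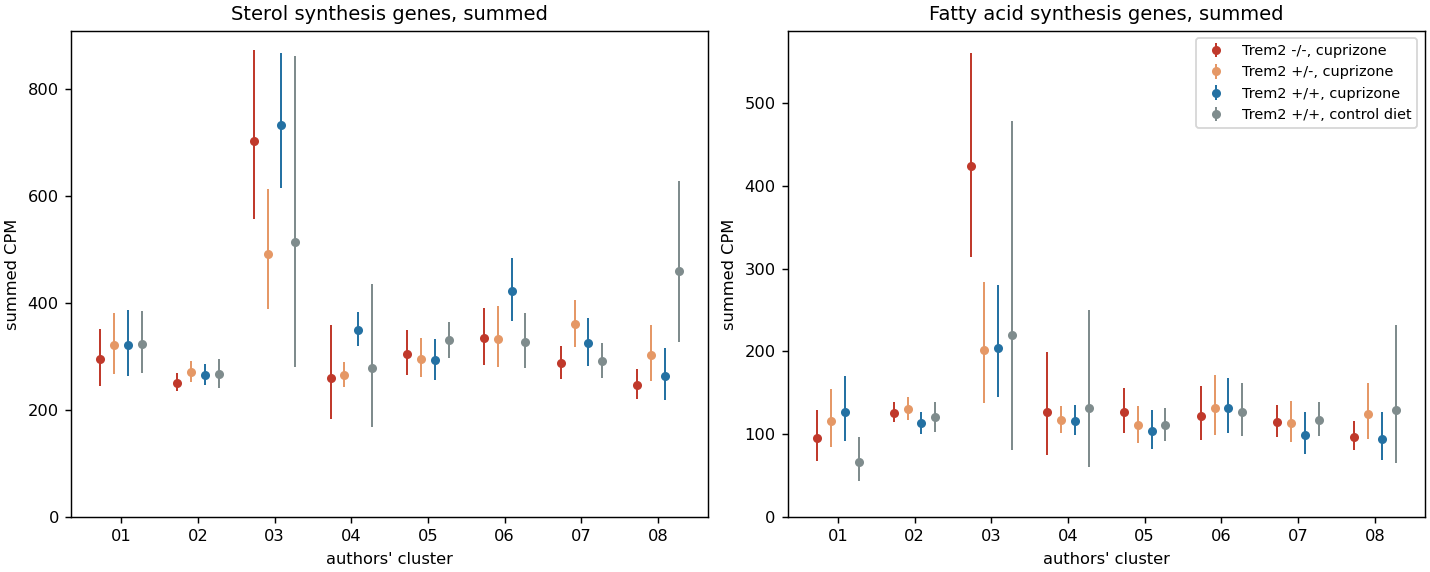
Summed CPM of the sterol synthesis genes (left) and the fatty acid synthesis genes (right) in each of the authors' clusters and each library, with exact Poisson 95% intervals (counting error only). Cluster 03 lies above the others for sterol genes, and the widest intervals belong to clusters with few cells, such as 7 control cells in cluster 03.

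Single cells held few of these molecules. Each cell was thinned to 2915 UMIs once, by random draw. Any sterol synthesis gene was then seen in 54.7% of 673 knockout cells and 55.7% of 644 heterozygote cells. In wild type it was seen in 59.4% of 604 cells on cuprizone and 63.7% of 410 on control diet. The exact binomial 95% interval of the knockout (50.8% to 58.5%) overlapped that of wild type on cuprizone (55.4% to 63.4%). Without thinning the shares were 80.1%, 83.5%, 85.4% and 78.5%, and the control library was the shallowest, with a median of 4717 UMIs per pooled cell against 6061 in the knockout.

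Msmo1 was seen in 6.84% (5.05% to 9.01%) of thinned knockout cells, 12.1% (9.69% to 14.9%) of heterozygote cells, 10.8% (8.40% to 13.5%) of wild-type cells on cuprizone and 12.9% (9.84% to 16.6%) on control diet. The knockout was the low library, and its interval met that of wild type on cuprizone but neither of the others. Intervals of shares treat cells as independent and hold no variation between animals or libraries. They therefore cannot separate the groups. Unthinned, the Msmo1 shares were 19.8%, 24.9%, 25.2% and 23.0%. Srebf2 was seen in 1.34% of thinned knockout cells, 2.48% of heterozygote cells, 3.31% of wild-type cells on cuprizone and 1.71% on control diet, and unthinned in 5.18%, 12.1%, 11.01% and 5.64%. Its thinned intervals of 0.613% to 2.52% in the knockout and 2.03% to 5.07% in wild type on cuprizone overlapped. Idi1 was seen in 1.04% (0.419% to 2.13%) of thinned knockout cells, 0.932% (0.343% to 2.02%) of heterozygote cells, 2.32% (1.27% to 3.86%) of wild-type cells on cuprizone and 1.95% (0.846% to 3.81%) on control diet. The knockout and heterozygote shares rest on 7 and 6 cells left by that random draw, so their order was not read, and the intervals overlapped. Unthinned, the Idi1 shares were 1.99%, 5.32%, 4.52% and 5.01%. Any fatty acid synthesis gene was seen in 26.9%, 27.8%, 27.2% and 31.5% of thinned cells in the same order, and in 52.9%, 56.4%, 53.4% and 49.1% unthinned. No cell type in the table is known to lack these genes, so the share that free RNA alone would give could not be set beside these.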

How the data were processed

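The deposited table gives UMI counts, whole and not normalized, for each gene in each cell. The submitters' processing notes name Cell Ranger 2.1.1 and build mm10. According to the labels' protocols, 30000 cells were sorted per hemibrain and 2 hemibrains were pooled per library. The authors' tables assign each cell to a library and to 1 of 8 clusters, and the gene seen least often has a UMI in 8 cells. Neither the gene annotation nor the strand setting is given in the sources used here.

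Counts were summed per library over 6 clusters, without clusters 03 and 07, and scaled to the library total. Depth was 3638474 to 6552603 pooled UMIs per library. Intervals are exact at 95% (conditional binomial for ratios, Poisson for CPM, binomial for shares) and cover counting error only. With 1 library per group there is no replicate error, no test and no p-value. No gene with 3 or fewer UMIs in both libraries was given a fold.

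The set and all lists were chosen with earlier results of these data known. Genes with 200 UMIs over the 4 libraries are given in every library, those past 1.5-fold with ratio and interval, and others by ranges. Doublets stay in the main values. Scrublet in scanpy 1.11.5 called 20 knockout, 0 heterozygote, 11 wild-type cuprizone and 0 control cells, which were left out in an alternative together with the deepest 1% of cells. Scrublet found none in 2 libraries, so doublets there were not removed. TMM factors came from edgeR 4.0.16. Ratios and calls were checked on simulated Poisson counts, the error model of the intervals, with planted changes larger than 1.5-fold. The simulation held no variation between cells, animals or libraries, so it cannot check the calls against that variation or near 1.5-fold. Gene coordinates are from GENCODE on GRCm38. The exons used to trim promoters came from the same annotation.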

Additional observations from a re-analysis of the deposited data

How the results depend on the processing

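No paired analysis was possible because each group has 1 library. Ratios were recomputed under 8 alternatives of scaling and cell choice and 1 chosen after seeing the data, and calls also with a minimum of 20 UMIs, with no minimum and at 2-fold. In knockout against wild type on cuprizone 5 genes passed 1.5-fold, and 3 passed without cluster 08, 3 with the mean of per-cell CPM, 3 without the cells richest in neutrophil markers (chosen after seeing the data) and 2 at 2-fold. In heterozygote against wild type 2 passed, and 1 at 2-fold. In knockout against heterozygote, where every alternative was added after its values were seen, 4 passed, and 2 at 2-fold. In cuprizone against control diet 3 passed, and 0 with clusters weighted equally and 0 at 2-fold. The sterol sum of that comparison had a log2 ratio of -0.01, and 0.11 under TMM scaling, whose construction shifts all genes alike. The cause of the other shifts was not tested. The sterol sum of knockout against wild type stayed between -0.20 and -0.16 on the log2 scale. Of 882 recomputed ratios of single genes over the 4 comparisons 4 moved beyond their counting interval, all in cuprizone against control diet, and 0 of the genes past 1.5-fold changed sign. The alternatives share most of their UMIs, and the intervals are wide at low counts. These counts therefore cannot show that the ratios are stable. Depth limits the genes with under 50 UMIs.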
